A study of Mus musculus with 93 samples.

Results

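The genes described here are those of the mouse mitochondrial genome (mtDNA), taken as every row of the deposited count table whose symbol starts with mt-. There were 37 such genes among 53465 in the table: 13 mRNAs, 2 ribosomal RNAs (rRNAs) and 22 transfer RNAs (tRNAs). The study sequenced liver RNA of 93 male mice from 7 inbred strains fed a control diet (CD, 10% of energy from fat) or a western-style diet (WD, 40% of energy from fat), which gave 14 groups of 5 to 8 mice. C57BL/6J, DBA/2J, A/J and 129S1/SvImJ are domesticated strains, and CAST/EiJ, PWK/PhJ and WSB/EiJ are wild-derived. Every mouse was moved to 30°C (thermoneutrality, TN) at 6 weeks of age and put on its diet at 7 weeks for 17 weeks, so the groups are written CD-TN and WD-TN. Per the study's methods the mice were fasted and perfused before the liver was taken. On CD-TN there were 8 mice of C57BL/6J, 7 of 129S1/SvImJ, 7 of CAST/EiJ, 6 each of DBA/2J, PWK/PhJ and WSB/EiJ, and 5 of A/J. The WD-TN groups held 8 mice of C57BL/6J, 8 of CAST/EiJ, 7 of DBA/2J, 7 of PWK/PhJ and 6 each of A/J, 129S1/SvImJ and WSB/EiJ. PWK/PhJ is of the subspecies Mus musculus musculus and CAST/EiJ of Mus musculus castaneus, while the other strains are mostly Mus musculus domesticus.

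Mitochondrial DNA is a small circle that is inherited from the mother and sits in many copies in each cell. Both of its strands are transcribed as long precursors, from which the tRNAs are cut out so that the mRNAs and rRNAs between them are released, and short A tails are then added. The mRNAs encode core subunits of respiratory complexes I (mt-Nd1 to mt-Nd6 and mt-Nd4l), III (mt-Cytb) and IV (mt-Co1 to mt-Co3) and of the ATP synthase (mt-Atp6 and mt-Atp8), while mt-Rnr1 and mt-Rnr2 are the RNAs of the small and large subunit of the mitochondrial ribosome. All other subunits, and the enzymes that copy, transcribe and process mtDNA, are encoded in the nucleus. Pieces of mtDNA have also been inserted into nuclear chromosomes during evolution, and a read from mtDNA can match such a nuclear copy as well as, or better than, the mitochondrial reference.

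The last point matters because reads of all strains were mapped to the C57BL/6J reference (GRCm38) and a read that matched several places was not counted for any gene. Among the transcripts of the GENCODE annotation, 28 annotated nuclear sequences matched a mitochondrial gene over at least 100 bases with at least 80% identity. Of these, 11 matched with at least 95% identity, and they covered 9 of the mitochondrial genes. A block on chromosome 1, chr1:24611535-24616188 on the minus strand, follows the order of mtDNA from position 6390 to 11042. It holds annotated unprocessed pseudogenes that match mt-Co2 (Gm28661), mt-Atp6 (Gm10925), mt-Co3 (Gm28437), mt-Nd4l (Gm10222) and the first 876 bases of mt-Nd4 (Gm28439) with 100% identity, mt-Nd3 (Gm28438) with 99.7% and the end of mt-Co1 (Gm29216) with 99.8%. On chromosome 2, Gm13340 matches all 1545 bases of mt-Co1 with 97.6% identity and 37 mismatches, Gm13341 matches mt-Co2 with 95.9%, and Gm13339 matches 510 bases of mt-Nd2 with 96.7%. Gm4076, on chromosome 13, matches 954 bases of mt-Nd5 with 95.2% identity.

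The sequences of 4 such pairs, from the GRCm38 transcripts and each 5′ to 3′, show what a read could tell apart. Capitals mark the bases at which the mitochondrial gene and its copy differ. The first 60 bases of mt-Co2 (chrM:7013-7072, plus strand) and of Gm28661 (chr1:24615506-24615565, minus strand) have no difference:
mt-Co2: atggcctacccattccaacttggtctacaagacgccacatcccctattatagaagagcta
Gm28661: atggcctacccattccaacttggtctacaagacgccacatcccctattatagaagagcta
The start of mt-Nd3 (chrM:9459-9518, plus strand) and of Gm28438 (chr1:24613060-24613119, minus strand) has the substitution T3C, counted from 1 at the 5′ end of the gene, which is the only mismatch in the 345 matched bases:
mt-Nd3: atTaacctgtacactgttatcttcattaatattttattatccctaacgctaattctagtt
Gm28438: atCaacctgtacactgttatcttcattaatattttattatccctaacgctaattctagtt
The 100 bases of mt-Co1 with the most mismatches to Gm13340 (chrM:5762-5861, plus strand, and chr2:22589114-22589213, minus strand) have 5:
mt-Co1: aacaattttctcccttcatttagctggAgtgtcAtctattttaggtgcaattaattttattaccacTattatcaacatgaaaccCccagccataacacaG
Gm13340: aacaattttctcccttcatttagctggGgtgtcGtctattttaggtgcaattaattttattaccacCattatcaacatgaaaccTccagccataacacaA
The corresponding 100 bases of mt-Nd2 and Gm13339 (chrM:4672-4771, plus strand, and chr2:22590204-22590303, minus strand) have 6:
mt-Nd2: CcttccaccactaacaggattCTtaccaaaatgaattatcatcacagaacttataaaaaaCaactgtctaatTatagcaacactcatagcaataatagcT
Gm13339: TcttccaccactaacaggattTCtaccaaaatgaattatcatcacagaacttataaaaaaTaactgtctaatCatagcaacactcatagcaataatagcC

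As a measure of how much of each gene a short read could place, the share of its 50-base windows that recur without a mismatch in an annotated copy was computed. It was 100% for mt-Co2, 99.9% for mt-Co3, 99.5% for mt-Atp6, 98.8% for mt-Nd4l and 98.0% for mt-Nd3. For mt-Nd4 it was 62.2%, for mt-Co1 51.1%, for mt-Nd2 8.19%, for mt-Nd5 7.61% and for mt-Rnr2 1.04%. No window of mt-Rnr1, mt-Nd1, mt-Nd6 or mt-Cytb recurred in an annotated copy. No window of mt-Atp8 recurred either, but the place on the chromosome 1 block where it would lie (chr1:24614609-24614812) holds no annotated gene and was therefore outside the search. Strain sequences of mtDNA were not read here, since only counts were analysed. The file does not state whether reads were counted by strand. mt-Nd6 and 8 of the tRNAs are encoded on the minus strand, so if strand was not used, reads from these genes and reads antisense to them cannot be told apart.

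Each mouse had 40020424 to 49894856 reads assigned to genes (median 46618609), and the RNA integrity number (RIN) was 7 to 9.7. No pair of mice in a group had counts alike within sampling noise. As a check of the labelled tissue, 10 hepatocyte markers summed to between 77531 and 226432 CPM in every mouse. The labels assign the mice to 7 cohorts, each strain to 2 or 3 of them with both diets, and cohort values are given where they matter. In bulk tissue, fewer cells of a type and less RNA per cell cannot be told apart. Levels are given in CPM, read counts brought to a fixed total of reads on genes per mouse, after TMM scaling, as mean ± SD over the mice of a group. Differences are log2 fold changes from limma-voom with their standard errors (SE), with p-values adjusted (Benjamini-Hochberg) over the 19110 genes tested, and a gene was called at an adjusted p below 0.05. Separate mice were the replicates, and they are numbered within a group only to name them.

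Of the 37 genes, 16 passed the filter on low counts: the 13 mRNAs, both rRNAs and 1 tRNA, mt-Tp. The other 21 were tRNAs, and 18 of these had no read in any of the 93 mice. mt-Tn had 18 reads in all, with 0 to 2 per mouse, and mt-Tt had 1. mt-Tc had 0 to 10 reads per mouse and 286 in all. The tRNA genes are 59 to 75 bases long, and only mt-Tp had many reads, 2983 to 8934 per mouse. mt-Tp, the tRNA for proline, is encoded on the minus strand at chrM:15356-15422, directly before the control region, and mt-Tc, the tRNA for cysteine, on the minus strand at chrM:5192-5257. How many reads of mt-Tp reach into the control region, or are antisense to the gene, was not tested. Values of mt-Tp are therefore reported as counted and not as levels of the tRNA. mt-Tp and mt-Tc are shown because they are the tRNAs with the most reads.
mt-Tp: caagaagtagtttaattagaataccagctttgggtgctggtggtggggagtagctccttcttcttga
mt-Tc: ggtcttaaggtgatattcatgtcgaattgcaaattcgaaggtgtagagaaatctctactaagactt

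The 37 genes together took 5.50% to 9.91% of the reads on genes in a mouse. On CD-TN the mean share was 8.45% for 129S1/SvImJ, 8.20% for C57BL/6J, 8.16% for WSB/EiJ, 7.69% for CAST/EiJ, 7.13% for A/J, 6.74% for DBA/2J and 5.96% for PWK/PhJ. With the reads on the 11 nearly identical copies added, the share rose to 10.0% in CAST/EiJ and 8.31% in PWK/PhJ. It was 8.47% in 129S1/SvImJ and 8.22% in C57BL/6J, close to the values without the copies. DBA/2J was then lowest on CD-TN, at 6.75%. In PWK/PhJ the share was 5.96 ± 0.35% on CD-TN (n = 6) and 7.05 ± 0.83% on WD-TN (n = 7), and 5 of the 7 WD-TN mice lay above all CD-TN mice. The means were 5.76% and 6.47% within cohort 1 and 6.16% and 7.48% within cohort 2. In PWK/PhJ the share of all reads that did not map also moved with the diet, from 3.50 ± 0.71% on CD-TN to 7.88 ± 1.18% on WD-TN, and its part in the result was not tested. The mean of unmapped reads rose as well in WSB/EiJ (4.52 ± 1.61% to 7.42 ± 2.52%), CAST/EiJ (10.8 ± 1.7% to 13.3 ± 1.0%), 129S1/SvImJ and C57BL/6J. It fell in DBA/2J (6.45 ± 0.62% to 4.77 ± 0.67%) and A/J. Taken over all reads of the table, the mitochondrial share was 4.60% on CD-TN and 5.11% on WD-TN in PWK/PhJ, a difference of 0.51 percentage points where the reads on genes gave 1.09, and it was 5.66% and 6.08% in A/J. In WSB/EiJ the difference was 0.10 percentage points over all reads, where the reads on genes gave 0.52. In the other 6 strains the diet means differed by between -0.13 and 0.53 percentage points of the reads on genes and the groups overlapped. No test was made of this sum.

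**Figure D1:**
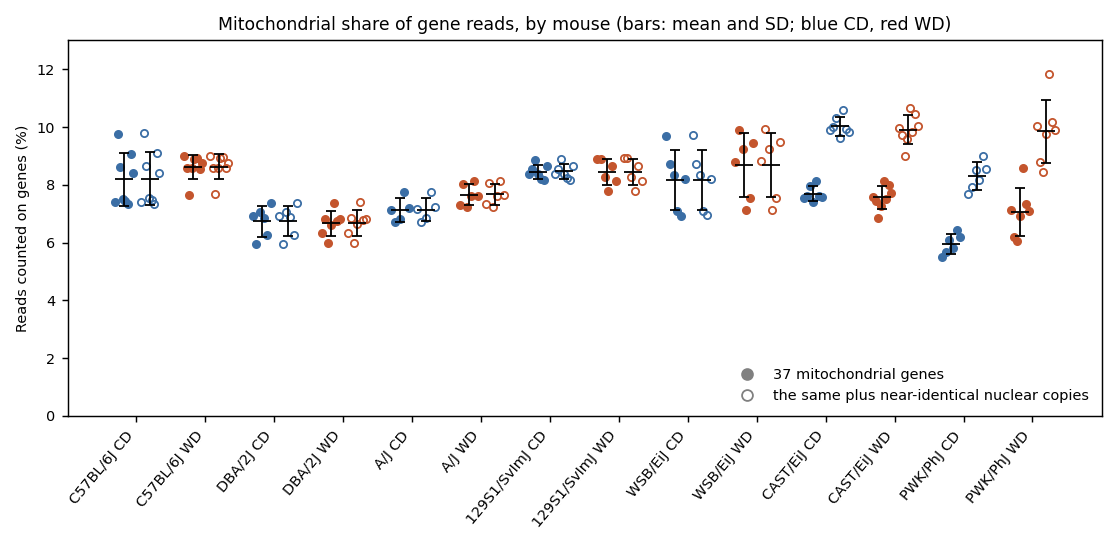
Share of the reads on genes that fell on the 37 mitochondrial genes, in percent, for each mouse (points) with the mean and SD of each strain and diet. Filled points are the 37 genes alone, and open points have the reads on the nearly identical nuclear copies added. Without the copies PWK/PhJ on CD-TN was lowest with a mean of 5.96%. With them it was at 8.31%, and DBA/2J was lowest of the CD-TN groups at 6.75%. In both forms the diets overlapped in every strain.

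The copies took reads in a pattern that followed the strains. For mt-Co1, the catalytic subunit of complex IV, 53.2 ± 0.4% of the reads on the gene and its 2 copies lay on the copies in CAST/EiJ (n = 15) and 53.3 ± 0.7% in PWK/PhJ (n = 13), against 0.184% to 0.218% in the other 5 strains. Gm13340 alone had a mean of 14588 CPM in CAST/EiJ and 16435 CPM in PWK/PhJ on CD-TN, and 32.9 to 41.2 CPM in the CD-TN groups of the other strains. mt-Co1 itself stood at 12859 ± 575 CPM in CAST/EiJ and 14331 ± 434 CPM in PWK/PhJ on CD-TN. On CD-TN every mouse of the other strains had more, with CD-TN means from 21983 CPM in C57BL/6J to 30390 CPM in WSB/EiJ. A low mt-Co1 count in these 2 strains thus went with a high count on the chromosome 2 copy.

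The same held for mt-Nd2, a core subunit of complex I, of which 34.9 ± 1.0% of reads lay on Gm13339 in CAST/EiJ and 39.6 ± 1.5% in PWK/PhJ, and 0.031% to 0.035% in the others. For mt-Nd5, also of complex I, the share on Gm4076 was 8.47 ± 0.19% in CAST/EiJ and 15.6 ± 0.3% in PWK/PhJ, against 0.024% to 0.035%. For mt-Co2, the subunit that takes electrons from cytochrome c, the copies held 98.9% of reads in CAST/EiJ and 97.4% in PWK/PhJ, most of them on Gm13341. In the other strains the copies held 68.2% to 70.9% of mt-Co2 reads, on low counts: mt-Co2 had 14.1 to 18.7 CPM there on CD-TN, 52.9 ± 5.4 CPM in CAST/EiJ and 68.4 ± 8.6 CPM in PWK/PhJ. Summed with its 2 copies, mt-Co2 had far more counted reads in the 2 diverged strains. Gm13341 alone had 4748 ± 456 CPM in CAST/EiJ and 2442 ± 177 CPM in PWK/PhJ. Every window of mt-Co2 recurred in an annotated copy, and reads that matched several places were not counted. Summing does not bring such reads back, so the sums compare counted reads and not levels of the RNA.

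**Figure D2:**
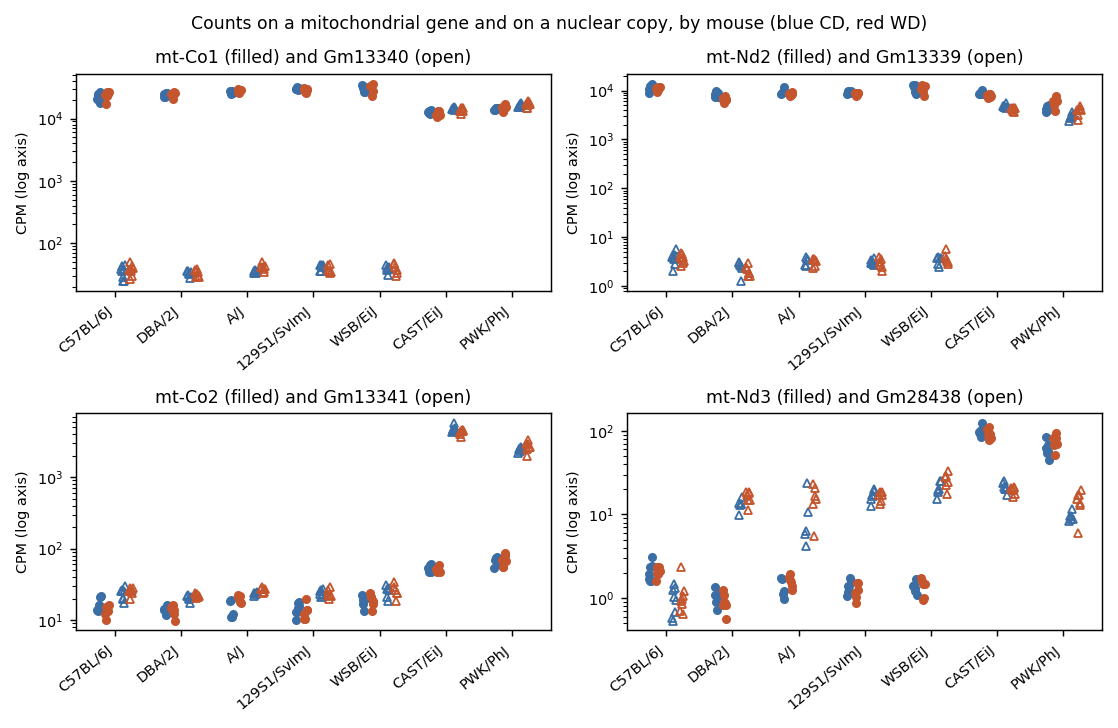
Levels in CPM on a logarithmic axis for 4 mitochondrial genes and the nuclear copy of each, in every mouse by strain and diet. Gm13340, Gm13339 and Gm13341 lie far higher in CAST/EiJ and PWK/PhJ than in the other strains (Gm13340 at 14588 and 16435 CPM on CD-TN, against 32.9 to 41.2 CPM), while Gm28438 is lowest in C57BL/6J.

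mt-Nd3, a complex I subunit, had the reverse pattern, with C57BL/6J apart from its relatives. On CD-TN mt-Nd3 had 2.04 ± 0.53 CPM in C57BL/6J and 1.04 to 1.37 CPM in 129S1/SvImJ, A/J, DBA/2J and WSB/EiJ. It had 97.5 ± 12.7 CPM in CAST/EiJ and 62.2 ± 13.6 CPM in PWK/PhJ. Gm28438, which differs from it by T3C, had 0.97 ± 0.35 CPM in C57BL/6J and 17.0 ± 2.6, 10.2 ± 7.9, 13.3 ± 2.0 and 20.7 ± 3.9 CPM in 129S1/SvImJ, A/J, DBA/2J and WSB/EiJ. The share of reads on the copy was thus 32.5 ± 8.6% in C57BL/6J and 86.9% to 94.3% in those 4 strains, and it was 17.8% in CAST/EiJ and 14.8% in PWK/PhJ. The A/J mice varied most among themselves, from 4.19 to 23.5 CPM of Gm28438 on CD-TN.

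The neighbours of mt-Nd3 are nearly all covered by the chromosome 1 block and had low counts in every strain. On CD-TN mt-Atp6, the proton channel subunit of the ATP synthase, had 15.8 to 20.6 CPM in the 5 domesticus strains, 79.7 ± 9.7 CPM in CAST/EiJ and 83.5 ± 7.8 CPM in PWK/PhJ. mt-Co3, a core subunit of complex IV, had 14.9 to 21.7 CPM in the former, 77.4 ± 7.6 CPM in CAST/EiJ and 57.5 ± 6.9 CPM in PWK/PhJ. Copies held 53.3% to 56.2% of mt-Atp6 reads and 36.6% to 47.6% of mt-Co3 reads over the 7 strains. mt-Nd4l, the smallest complex I subunit of the set, had 1.04 to 1.39 CPM in C57BL/6J, DBA/2J, A/J and 129S1/SvImJ. It had 4.89 ± 0.83 CPM in WSB/EiJ, 8.95 ± 1.65 CPM in CAST/EiJ and 9.59 ± 1.26 CPM in PWK/PhJ. mt-Atp8, a small ATP synthase subunit whose end overlaps mt-Atp6 by 43 bases, had 1.53 to 1.91 CPM in the 5 domesticus strains, 20.8 ± 4.4 CPM in CAST/EiJ and 15.9 ± 2.3 CPM in PWK/PhJ. mt-Co2, mt-Atp8, mt-Atp6, mt-Co3, mt-Nd3 and mt-Nd4l thus held few of the reads although they lie between mt-Co1 and mt-Nd4, which had far more, so their values are reported as counted and not as levels of the RNA.

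Levels per length were compared between genes for those without windows in an annotated copy. In C57BL/6J on CD-TN, mt-Cytb had 12049 ± 2353 CPM per kb and mt-Nd1 10302 ± 761, while mt-Nd6 had 4247 ± 888 and mt-Rnr1 1629 ± 111. mt-Rnr2, with few such windows, had 1400 ± 193 CPM per kb. In CAST/EiJ mt-Cytb was at 20125 ± 1228 CPM per kb and mt-Nd1 at 11550 ± 760, and in PWK/PhJ they were at 11900 ± 521 and 8663 ± 1127. As counted, the rRNAs thus stood below these 3 mRNAs per length in each of these strains. The libraries were made with an mRNA kit, and how well it takes up the rRNAs was not tested. The order is therefore one of counts and not of the amounts of RNA in the liver. The ratio of mt-Rnr2 to mt-Rnr1 counts on CD-TN ranged from 1.42 ± 0.16 in C57BL/6J to 2.95 ± 0.26 in CAST/EiJ.

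To ask how the strains differed on the same diet, each was compared with C57BL/6J on CD-TN, the strain of the reference. The 6 comparisons share the C57BL/6J mice. Of the 16 genes tested, 14 were called in CAST/EiJ, where 65.9% of all genes were, and 12 in PWK/PhJ, where 58.0% were. DBA/2J had 11 against 39.7% of all genes, WSB/EiJ 10 against 53.8%, 129S1/SvImJ 6 against 48.9% and A/J 5 against 38.4%. In CAST/EiJ 11 of the 14 were higher and in DBA/2J 10 of the 11 were lower. The direction depended on the copies for several genes: mt-Co1 was -0.76 in CAST/EiJ and -0.61 in PWK/PhJ as counted, and 0.33 and 0.49 when summed with its copies. Likewise mt-Nd2 in CAST/EiJ was -0.36 as counted and 0.25 when summed. mt-Nd3 was called lower in 129S1/SvImJ, A/J, DBA/2J and WSB/EiJ as counted, at -0.54 to -0.95, and higher, at 1.77 to 2.90, when summed with Gm28438. mt-Nd2 in PWK/PhJ was lower in both forms, by 1.37 as counted and by 0.63 when summed (adjusted p = 1.91e-08, limma-voom). Summing with the copies was chosen after seeing the data. With cohort as a term the calls of mt-Nd3 as counted were lost in 129S1/SvImJ (-0.36) and A/J (-0.43), as were those of mt-Nd1 in CAST/EiJ (0.13) and of mt-Atp6 (-0.28), mt-Co3 (-0.42) and mt-Nd4 (-0.27) in DBA/2J. WSB/EiJ could not be fitted with that term.

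On CD-TN 10.8 ± 1.7% of all reads did not map in CAST/EiJ and 2.23 ± 0.33% in C57BL/6J. The part of this in the strain differences was not tested. Among the genes without windows in an annotated copy, mt-Rnr1 was lower than in C57BL/6J in each of the 6 comparisons, from -0.66 ± 0.12 (SE) in WSB/EiJ to -1.23 ± 0.12 in 129S1/SvImJ. Its CD-TN level was 1361 to 1724 CPM in the 8 C57BL/6J mice with a median of 1540, and no mouse of another strain on CD-TN was above 1294 CPM. mt-Cytb was higher in CAST/EiJ, by 0.76 ± 0.09 (adjusted p = 9.57e-12, limma-voom), and in WSB/EiJ, by 0.40 ± 0.09. It was lower in DBA/2J at -0.27 ± 0.09, a call lost when genes with any count were tested and without C57BL/6J mouse 7 or DBA/2J mouse 2 (adjusted p of up to 0.0738). In PWK/PhJ it stood at 0.00 ± 0.09. mt-Nd6 stood at 0.68 in CAST/EiJ, 0.44 in WSB/EiJ and -0.52 in DBA/2J, all called. mt-Nd1 was called in PWK/PhJ (-0.26) and DBA/2J (-0.22), the latter not without DBA/2J mouse 2 or 5 (adjusted p of up to 0.0781). It was also called in CAST/EiJ (0.17, adjusted p = 0.0459), but this call was lost in 5 of 10 alternatives, edgeR among them. It was lost as well when any 1 of C57BL/6J mice 1, 4, 5 and 6 and CAST/EiJ mice 3, 5, 6 and 7 was left out (adjusted p of up to 0.165). mt-Tp was higher than in C57BL/6J in 5 strains, from 0.35 in PWK/PhJ to 0.86 in WSB/EiJ, and at 0.04 in CAST/EiJ it was not called. The PWK/PhJ call of mt-Tp was lost with sample weights. mt-Nd4l in WSB/EiJ was higher by 1.88 ± 0.17 as counted and by 2.21 summed with Gm10222.

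**Figure D3:**
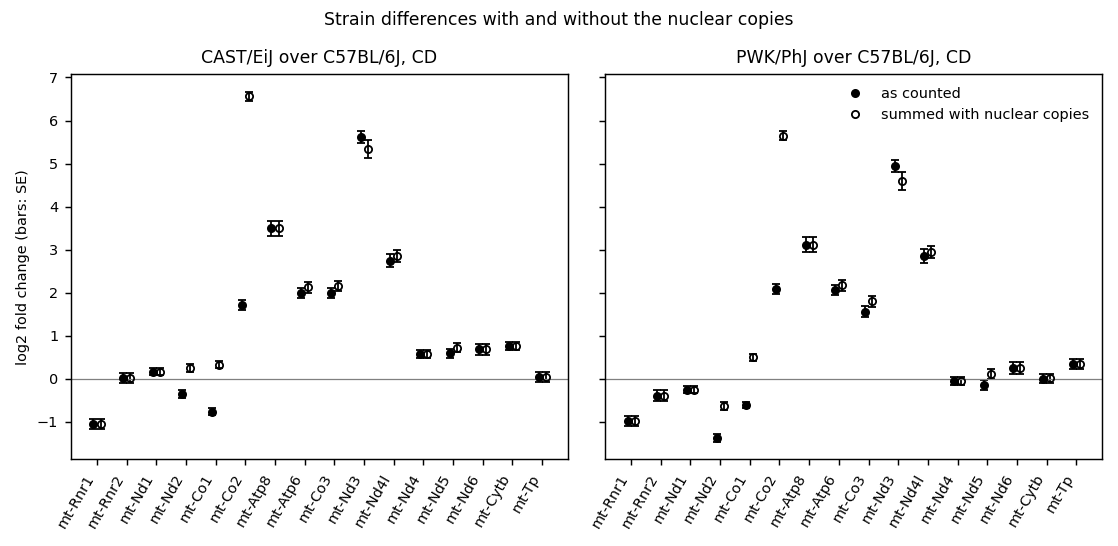
Log2 fold change of CAST/EiJ (left) and PWK/PhJ (right) against C57BL/6J on CD-TN for the 16 mitochondrial genes tested. Filled points are as counted, open points have each gene summed with its nuclear copies, and bars are SEs. mt-Co1 in CAST/EiJ lies at -0.76 as counted and at 0.33 when summed, while mt-Rnr1 is below 0 in both strains.

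To ask what the diet did, WD-TN was compared with CD-TN within each strain. WD-TN changed 4 of the 16 genes in C57BL/6J, where 26.2% of all genes tested were called, 4 in DBA/2J (18.0% of all genes), 4 in 129S1/SvImJ (28.0%) and 4 in PWK/PhJ (29.6%). It changed 3 in A/J (9.03%) and 1 in WSB/EiJ (8.94%). In CAST/EiJ limma-voom called none of them, while 19.5% of all genes were called. There the smallest adjusted p was 0.0710, 3 of the 16 had an unadjusted p below 0.05, edgeR called 0 and DESeq2 called 1. The median log2 fold change of the 16 genes was between -0.14 in 129S1/SvImJ and 0.06 in PWK/PhJ. The calls fell on few genes: the rRNAs, mt-Tp and mt-Nd1 made up most of the downregulated ones.

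**Figure D4:**
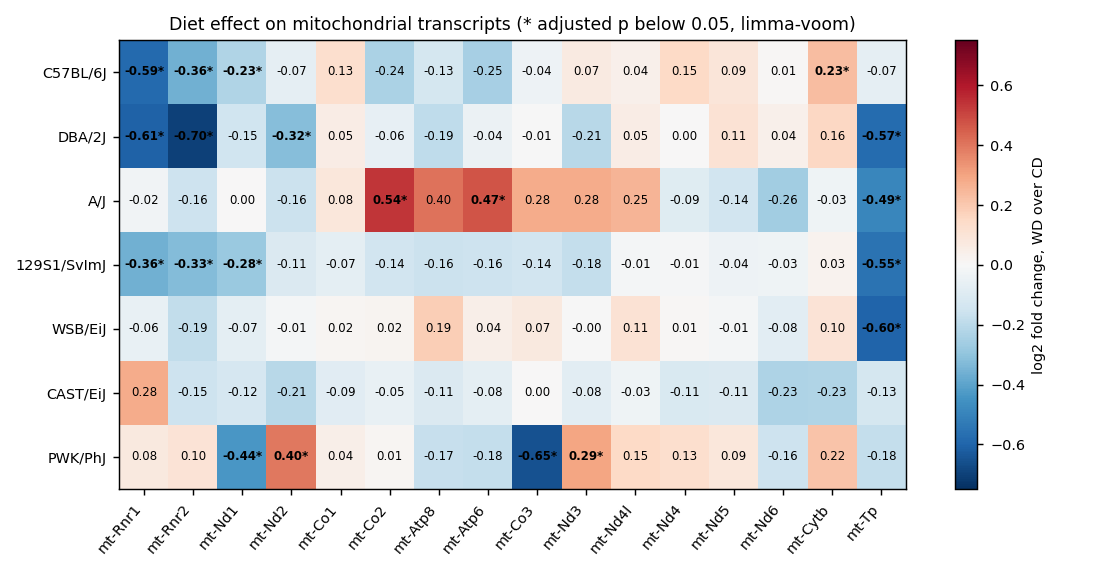
Log2 fold change of WD-TN against CD-TN for the 16 mitochondrial genes tested (columns) in the 7 strains (rows), with the calls at an adjusted p below 0.05 marked. mt-Rnr1 and mt-Rnr2 fell in C57BL/6J, DBA/2J and 129S1/SvImJ, and mt-Tp as counted fell in 4 strains. PWK/PhJ has 4 calls, mt-Nd1, mt-Nd2, mt-Co3 and mt-Nd3. Of these, mt-Nd1 was also called lower in C57BL/6J and 129S1/SvImJ, and mt-Nd2 was called lower in DBA/2J.

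The rRNAs as counted fell on WD-TN in the same 3 strains. In C57BL/6J mt-Rnr1 was at 1361 to 1724 CPM on CD-TN (median 1540) and at 812 to 1269 CPM on WD-TN (median 1028), so that the groups did not overlap. The log2 fold change was -0.59 ± 0.12 (SE, adjusted p = 5.07e-05, limma-voom), and it was -0.55 and -0.59 within the 2 cohorts. In DBA/2J mt-Rnr1 was at 694 to 1096 CPM (median 900) and fell to 488 to 642 CPM (median 586), by 0.61 ± 0.12 on the log2 scale (adjusted p = 1.38e-04). Again no WD-TN mouse reached the lowest CD-TN mouse. In 129S1/SvImJ it was at 567 to 749 CPM (median 642) on CD-TN and 448 to 615 CPM (median 518) on WD-TN, with overlap, at -0.36 ± 0.12 (adjusted p = 0.0194). Without WD-TN mouse 2 of 129S1/SvImJ the adjusted p was 0.0542.

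mt-Rnr2 in DBA/2J had the largest log2 fold change of the diet comparisons among the 16 genes. It was at 1610 to 2590 CPM on CD-TN (median 1906) and 1122 to 1325 CPM on WD-TN (median 1226), without overlap, at -0.70 ± 0.12 (adjusted p = 1.01e-05, limma-voom). Within the DBA/2J cohorts the differences were -0.82 and -0.58. In C57BL/6J it was at 1779 to 2663 CPM (median 2136) and 1343 to 1998 CPM (median 1754), at -0.36 ± 0.11 (adjusted p = 0.0109), with overlap. In 129S1/SvImJ it was at 1261 to 1553 CPM (median 1450) and 992 to 1360 CPM (median 1142), at -0.33 ± 0.12 (adjusted p = 0.0334), and this call was lost when WD-TN mouse 1, 2 or 4 or CD-TN mouse 5, 6 or 7 was left out (adjusted p of up to 0.0870). In A/J, PWK/PhJ and WSB/EiJ neither rRNA was called, with log2 fold changes of -0.19 to 0.10. In CAST/EiJ mt-Rnr1 stood at 758 ± 96 CPM on CD-TN and 926 ± 157 CPM on WD-TN (0.28 ± 0.11, adjusted p = 0.0735), and mt-Rnr2 at 2222 ± 227 and 2004 ± 287 CPM. Accordingly the ratio of mt-Rnr2 to mt-Rnr1 was 2.95 ± 0.26 on CD-TN and 2.18 ± 0.27 on WD-TN in CAST/EiJ, and 1.42 ± 0.16 and 1.66 ± 0.11 in C57BL/6J.

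**Figure D5:**
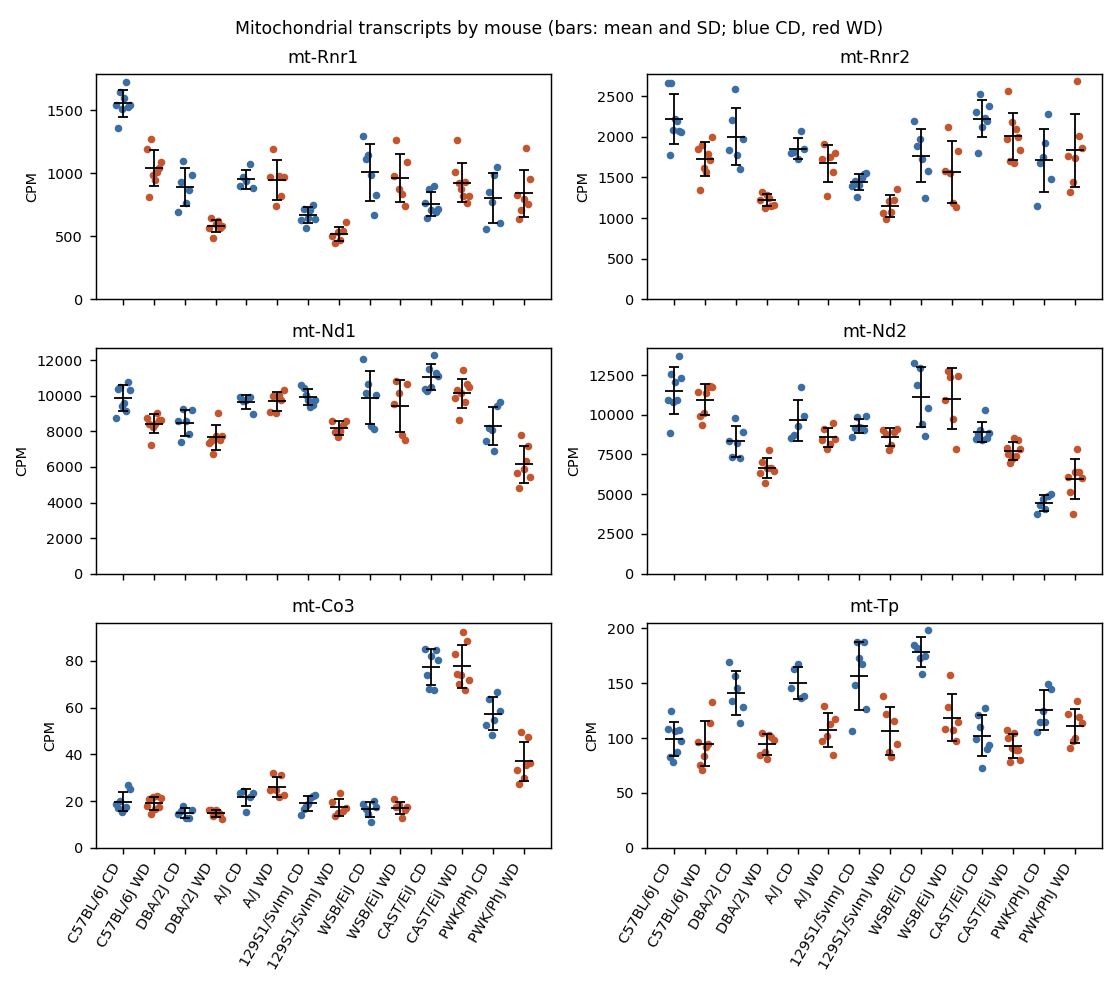
Levels in CPM of mt-Rnr1, mt-Rnr2, mt-Nd1, mt-Nd2, mt-Co3 and mt-Tp in each mouse (points) by strain and diet, with group means and SDs. In C57BL/6J and DBA/2J no WD-TN mouse reached the lowest CD-TN mouse for mt-Rnr1, and in PWK/PhJ mt-Nd1 and mt-Co3 are lower and mt-Nd2 higher on WD-TN.

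mt-Tp as counted fell in 4 strains by similar amounts. In WSB/EiJ it was at 158 to 199 CPM (median 178) on CD-TN and 97.3 to 157 CPM (median 111) on WD-TN, at -0.60 ± 0.13 (adjusted p = 6.43e-04, limma-voom). In DBA/2J it was at 114 to 169 CPM (median 140) and 81.2 to 105 CPM (median 98.0), at -0.57 ± 0.13 (adjusted p = 3.84e-04). Neither strain had an overlap between the diets. The 5 A/J mice on CD-TN had 145, 163, 167, 137 and 138 CPM, and the WD-TN mice had 84.8 to 129 CPM (median 107), at -0.49 ± 0.14 (adjusted p = 0.0122), also without overlap. In 129S1/SvImJ the range was 106 to 188 CPM (median 167) and 82.3 to 138 CPM (median 105), at -0.55 ± 0.13 (adjusted p = 4.12e-04), with overlap. In C57BL/6J, CAST/EiJ and PWK/PhJ the log2 fold changes were -0.07, -0.13 and -0.18 and were not called. None of the 4 calls was lost under any alternative or with any 1 mouse left out.

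mt-Nd1, a complex I subunit that carries part of the ubiquinone site, fell in 3 strains. In PWK/PhJ it was at 6908 to 9664 CPM (median 8149) on CD-TN and 4844 to 7782 CPM (median 5860) on WD-TN. There 5 of 7 WD-TN mice lay below all CD-TN mice, the log2 fold change was -0.44 ± 0.08 (adjusted p = 9.14e-06, limma-voom), and the cohorts gave -0.40 and -0.48. In 129S1/SvImJ the range went from 9382 to 10602 CPM (median 9786) to 7659 to 8592 CPM (median 8197), without overlap, at -0.28 ± 0.08 (adjusted p = 0.00579). In C57BL/6J it was at 8752 to 10779 CPM (median 9956) and 7259 to 9060 CPM (median 8525), at -0.23 ± 0.07 (adjusted p = 0.0142), and this call was lost in a fit of C57BL/6J alone (adjusted p = 0.0512). The other 4 strains had log2 fold changes of -0.15 to 0.00.

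In PWK/PhJ mt-Nd2, which lies 3 tRNA genes after mt-Nd1 on the same precursor, moved the other way. It was at 3723 to 5034 CPM (median 4506) on CD-TN and 3756 to 7817 CPM (median 6087) on WD-TN. It rose by 0.40 ± 0.10 (adjusted p = 7.95e-04, limma-voom), with 6 of 7 WD-TN mice above all CD-TN mice, and the cohorts gave 0.21 and 0.52. The call was lost when genes with any count were tested (adjusted p = 0.123). Summed with Gm13339 it rose by 0.38 (adjusted p = 0.00171), and the share of its reads on the copy was 40.0 ± 2.0% on CD-TN and 39.3 ± 0.8% on WD-TN. mt-Co3 as counted was at 48.3 to 66.6 CPM (median 56.8) on CD-TN and 27.5 to 49.5 CPM (median 35.6) on WD-TN, with 6 of 7 WD-TN mice below all CD-TN mice. It fell by 0.65 ± 0.12 (adjusted p = 1.07e-05), by 0.61 and 0.70 within the cohorts, and its copy Gm28437, identical over 783 bases, fell by 0.62. mt-Nd3 as counted was at 45.2 to 85.0 CPM (median 59.8) and 51.6 to 94.5 CPM (median 81.4), at 0.29 ± 0.09 (adjusted p = 0.00830). The mt-Nd3 call was lost with edgeR, with DESeq2, in a fit of PWK/PhJ alone, when summed with Gm28438 and without CD-TN mouse 6 (adjusted p = 0.0752), and the cohorts gave 0.00 and 0.54.

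As shares of the reads on the 13 mRNAs, which do not depend on the scaling of libraries, mt-Nd1 in PWK/PhJ took 14.6 ± 1.2% on CD-TN and 10.4 ± 2.2% on WD-TN. mt-Nd2 took 7.84 ± 0.43% and 9.90 ± 1.24%, and mt-Cytb 24.1 ± 1.1% and 26.7 ± 1.5%. mt-Co1, which holds the most reads of the set along with mt-Cytb, took 25.4 ± 1.4% and 25.0 ± 1.2%. Shares moved in other strains as well. mt-Nd1 went from 13.5 ± 0.9% to 11.0 ± 0.8% in C57BL/6J, from 13.1 ± 0.3% to 11.8 ± 0.4% in DBA/2J and from 12.2 ± 0.6% to 10.6 ± 0.5% in 129S1/SvImJ. mt-Nd2 went from 12.8 ± 0.9% to 10.2 ± 0.4% in DBA/2J, and mt-Cytb from 18.6 ± 1.3% to 20.9 ± 0.5% in C57BL/6J and from 17.4 ± 0.7% to 19.3 ± 0.5% in DBA/2J. In 129S1/SvImJ mt-Cytb went from 17.3 ± 0.5% to 18.5 ± 0.5%. In WSB/EiJ mt-Nd1 went from 10.8 ± 0.3% to 10.2 ± 0.3% and mt-Cytb from 19.8 ± 0.3% to 21.1 ± 0.3%. Thus mt-Nd1 took a smaller and mt-Cytb a larger share on WD-TN in PWK/PhJ, C57BL/6J, DBA/2J, 129S1/SvImJ and WSB/EiJ. Both means moved the other way in A/J and CAST/EiJ. The mean share of mt-Nd2 was larger on WD-TN in PWK/PhJ and smaller in DBA/2J, C57BL/6J, A/J, 129S1/SvImJ, CAST/EiJ and WSB/EiJ. It went from 15.8 ± 2.0% to 14.3 ± 0.9% in C57BL/6J and from 12.8 ± 1.4% to 11.6 ± 0.4% in A/J. In WSB/EiJ it was 12.1 ± 0.5% and 11.9 ± 1.0%.

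Of the remaining calls, A/J had higher mt-Co2 and mt-Atp6 on WD-TN. The 5 A/J mice on CD-TN had 18.5, 19.0, 10.9, 11.0 and 12.0 CPM of mt-Co2, and the WD-TN mice had 17.3 to 22.7 CPM (median 20.5), at 0.54 ± 0.15 (adjusted p = 0.0123, limma-voom). For mt-Atp6 the CD-TN mice had 23.3, 25.7, 15.6, 15.1 and 15.9 CPM and the WD-TN mice 20.8 to 32.0 CPM (median 25.7), at 0.47 ± 0.14 (adjusted p = 0.0224). In both genes the first 2 CD-TN values are from cohort 2 and the other 3 from cohort 3. The diet difference was 0.12 for both genes within cohort 2, and 0.77 and 0.64 within cohort 3, which held 3 CD-TN and 2 WD-TN mice. With cohort as a term the mt-Atp6 call was lost. It was also lost when WD-TN mouse 2 or CD-TN mouse 3, 4 or 5 was left out (adjusted p of up to 0.0852), and the mt-Co2 call was lost without CD-TN mouse 3 or 4 (up to 0.0572). mt-Nd2 in DBA/2J fell by 0.32 ± 0.10 (adjusted p = 0.0135), from 7285 to 9804 CPM (median 8290) to 5677 to 7767 CPM (median 6646), and its adjusted p was 0.0559 without CD-TN mouse 3. mt-Cytb in C57BL/6J rose by 0.23 ± 0.09 (adjusted p = 0.0388), a call that edgeR did not make. It was lost when any 1 of WD-TN mice 1, 5, 6, 7 and 8 or CD-TN mice 1, 4, 5 and 6 was left out (adjusted p of up to 0.125). Its cohorts gave 0.04 and 0.43. When genes with any count were tested, the diet calls of mt-Rnr1 and mt-Rnr2 in 129S1/SvImJ, mt-Atp6 in A/J, mt-Nd2 in DBA/2J and mt-Cytb in C57BL/6J were lost too, with adjusted p from 0.0719 to 0.124.

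mt-Co1, mt-Nd4, mt-Nd5, mt-Nd6, mt-Nd4l and mt-Atp8 were not called in any strain by limma-voom. Their log2 fold changes on WD-TN were -0.09 to 0.13 for mt-Co1, -0.11 to 0.15 for mt-Nd4 and -0.14 to 0.11 for mt-Nd5. mt-Nd6 ranged from -0.26 in A/J to 0.04 in DBA/2J. For the low-count genes mt-Nd4l and mt-Atp8 the ranges were -0.03 to 0.25 and -0.19 to 0.40, with SEs of up to 0.24 and 0.26. mt-Cytb in CAST/EiJ, at 21763 to 25858 CPM (median 22879) on CD-TN and 17380 to 21327 CPM (median 20088) on WD-TN, did not overlap between the diets, and its log2 fold change of -0.23 ± 0.09 had an adjusted p of 0.0710.

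To ask whether the diet effect itself depended on the strain, contrasts between strains were taken from this fit. A test over all 7 strains called 9 of the 16 genes, and 35.9% of all genes. The F statistic was highest for mt-Rnr1 (8.36), followed by mt-Nd2 (5.42), mt-Co3 (4.88), mt-Rnr2 (4.08) and mt-Tp (3.72). The other 4 calls, for mt-Nd1, mt-Cytb, mt-Atp6 and mt-Co2, were each lost when any 1 of 3 to 6 mice was left out. With cohort within strain as a term 6 of the 9 calls remained, and 6 of 9 remained when genes with any count were tested. Against the mean of the other 6 strains, PWK/PhJ differed in 4 genes (16.3% of all genes): mt-Nd2 (0.54 ± 0.10, adjusted p = 9.65e-05, limma-voom), mt-Co3 (-0.68 ± 0.13), mt-Rnr2 (0.41 ± 0.13) and mt-Nd1 (-0.30 ± 0.09). The call for mt-Nd1 was lost without WD-TN mouse 2, with an adjusted p of 0.0526. That for mt-Rnr2 was lost when CD-TN mouse 1 or 6 or WD-TN mouse 5 was left out (up to 0.115). CAST/EiJ differed in 2 genes (14.5% of all genes), mt-Rnr1 (0.54 ± 0.13, adjusted p = 0.00149) and mt-Cytb (-0.34 ± 0.10), and DBA/2J in 2 (7.77%), mt-Rnr1 (-0.50 ± 0.13) and mt-Rnr2 (-0.52 ± 0.13). C57BL/6J differed in 1 gene (4.69%), mt-Rnr1 (-0.47 ± 0.13, adjusted p = 0.0165). A/J differed in 1 (0.466%), mt-Co2 (0.61 ± 0.16, adjusted p = 0.0485), which was lost in 5 of 10 alternatives, among them edgeR and cohort as a term. It was also lost when any 1 of WD-TN mice 1 to 5 and CD-TN mice 3 to 5 was left out (adjusted p of up to 0.173). No gene was called in 129S1/SvImJ (6.28% of all genes) or WSB/EiJ (0.947%) by limma-voom. In both strains 0 of the 16 had an unadjusted p below 0.05, and edgeR and DESeq2 called 0.

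The nuclear genes that serve mtDNA were set beside these values. Of 18 genes for mtDNA transcription, replication and packaging, 1 was called higher and 4 lower on WD-TN in PWK/PhJ, where 15.1% of all genes were called higher and 14.5% lower. Mterf2, of the mitochondrial termination factor family, rose by 0.61 ± 0.15, while Ssbp1, the single-strand binding protein of mtDNA, fell by 0.26 ± 0.06 and Mterf4 by 0.22 ± 0.07. Tfam, which packages mtDNA and starts its transcription, fell by 0.20 ± 0.06 in PWK/PhJ (adjusted p = 0.0115, limma-voom), by 0.27 ± 0.06 in 129S1/SvImJ and by 0.23 ± 0.06 in C57BL/6J. Polrmt, the mitochondrial RNA polymerase, fell in A/J (-0.30), 129S1/SvImJ (-0.27) and C57BL/6J (-0.23) and stood at -0.12 ± 0.07 in PWK/PhJ. Of 18 tested genes for processing, polyadenylation and stability of mitochondrial RNA, 1 was higher and 4 lower in PWK/PhJ, among them Fastkd2, needed for mt-Rnr2 and mitochondrial ribosome assembly, at 0.21 ± 0.06, Grsf1, a protein of mitochondrial RNA granules, at -0.21 ± 0.06 and Ptcd2 at -0.28 ± 0.06. In 129S1/SvImJ 2 of these 18 were higher and 10 lower, where 14.5% and 13.6% of all genes were. Lrpprc, which stabilises mitochondrial mRNAs, was one of them at -0.33 ± 0.07, and it stood at -0.02 ± 0.07 in PWK/PhJ. Of 10 regulators of nuclear mitochondrial genes, 1 was higher and 1 lower in PWK/PhJ: Ppara, a receptor that drives fatty acid oxidation, at 0.62 ± 0.24 and Gabpb1 at -0.26 ± 0.07. Ppargc1a, the coactivator of mitochondrial biogenesis, was called in CAST/EiJ alone of the 7 strains, at -1.11 ± 0.22.

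The partner subunits encoded in the nucleus moved in one direction in PWK/PhJ. None was called higher on WD-TN there, while 27 of 36 complex I subunits, 8 of 9 of complex III, 12 of 12 of complex IV and 12 of 15 of the ATP synthase were called lower. The medians of these 4 lists were -0.24, -0.25, -0.26 and -0.26, against -0.01 over all genes tested. Examples are Ndufb8 (-0.63) and Ndufa6 (-0.46) of complex I, Uqcrh (-0.41) of complex III, Cox8a (-0.32) of complex IV and Atp5g1 (-0.39) of the ATP synthase. Of these 72 genes together, 59 were called in PWK/PhJ, where 29.6% of all genes were, and 29 in 129S1/SvImJ (28.0% of all genes). WSB/EiJ had 10 (8.94%), C57BL/6J had 6 (26.2%), DBA/2J had 6 (18.0%), CAST/EiJ had 1 (19.5%) and A/J had 0 (9.03%). As in PWK/PhJ, the 29 in 129S1/SvImJ and the 10 in WSB/EiJ were all lower. The 6 in C57BL/6J and in DBA/2J were each 3 higher and 3 lower, and the 1 in CAST/EiJ was higher. In A/J 6 of them had an unadjusted p below 0.05, and edgeR and DESeq2 called 0. Of the mtDNA mRNAs with high counts, mt-Nd1 was lower and mt-Nd2 higher in PWK/PhJ, and mt-Co1, mt-Nd4, mt-Nd5, mt-Cytb and mt-Nd6 were not called.

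Markers of cell types moved with the diet in PWK/PhJ, where 15.1% of all genes were called higher and 14.5% lower. Of 10 hepatocyte markers, 4 were called lower and 0 higher, and their summed level was 121870 to 147307 CPM on CD-TN and 79161 to 107999 CPM on WD-TN. Of 11 leukocyte and macrophage markers 8 were higher and 0 lower (47.4 to 303 CPM and 283 to 420 CPM), and of 9 stellate and fibroblast markers 5 were higher and 0 lower (172 to 265 CPM and 362 to 741 CPM). Of the cholangiocyte markers 4 of 5 were higher (64.5 to 140 CPM and 159 to 525 CPM). Of the 5 endothelial markers 1 was higher and 1 lower, and of the 5 erythroid markers 1 was higher and 0 lower, counts near those shares. In DBA/2J, where both rRNAs fell and 18.0% of all genes were called, limma-voom called none of the 11 leukocyte or 9 stellate markers, with 1 of each at an unadjusted p below 0.05 and 0 called by edgeR and DESeq2, and it called 2 of 10 hepatocyte markers. In C57BL/6J 7 of 11 leukocyte markers were called (26.2% of all genes) and in 129S1/SvImJ 9 of 11 (28.0%). The part of these markers in the mitochondrial values was not tested.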

How the data were processed

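Liver RNA of 93 mice was sequenced on a BGISEQ-500 from libraries made with a SMARTER mRNA-Seq kit. The authors mapped the reads of every strain to the C57BL/6J genome with STAR, which also made the gene counts, and deposited 1 table of raw counts (whole numbers of reads per gene, not normalized). The submitters' processing notes name STAR 2.7.1a and GRCm38 (mm10). The strand setting is not given in the sources used here. Such counting leaves out a read that maps to several places, which lowers genes with near-identical copies.

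Symbols were paired with 53274 of 53465 gene IDs. The 4 summary lines of the table stayed out of library sizes and gave group means of 2.11% to 13.3% of reads unmapped, 8.60% to 11.6% multimapping, 4.22% to 4.95% on no gene and 3.81% to 5.31% ambiguous. Totals of 40020424 to 49894856 reads on genes per mouse make counting error small beside the spread between mice, except for genes of few reads.

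Mice were grouped by the labels for strain and diet. Genes were kept by filterByExpr at a minimum count of 10, and limma-voom (limma 3.58.1, edgeR 4.0.16, R 4.3.3) was fitted to TMM-normalized counts with 14 group means. Contrasts were WD-TN against CD-TN in each strain, the diet effect of a strain against the mean of the other 6, an F test over all strains, and each strain against C57BL/6J on CD-TN, with Benjamini-Hochberg adjustment over the 19110 genes tested. The fit was tested on simulated data. Sums, shares and levels were described without a test. Alternatives were edgeR's quasi-likelihood test, DESeq2 1.42.0, other scalings and filters, RIN or cohort as a covariate, sample weights, a separate fit per strain and leaving out each mouse.

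Nuclear copies were sought with BLAST 2.17.0+ (e-value 1e-10, at least 100 bases, at least 80% identity) among GENCODE transcripts of GRCm38 and not along whole chromosomes, for which no sequence was used here. Copies of at least 95% identity were summed with their gene. All mt- genes that passed the filter were named. Of the lists of nuclear genes, up to 3 genes with the largest change among those called in PWK/PhJ were named, plus Tfam, Polrmt, Lrpprc and Ppargc1a. The genes, lists and tests were chosen with earlier results of these data known.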

Additional observations from a re-analysis of the deposited data

Results flagged for a closer look

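Of 238 sets of 1 quantity in 1 group, 13 had a mouse that lay far from the rest by Dixon's test, which chance gives in about 1 of 20 sets. C57BL/6J on WD-TN had such a mouse, number 3, with low values in 5 sets. It had 7259 CPM of mt-Nd1, 16936 of mt-Co1, 5232 of mt-Nd4 and 11335 of mt-Cytb, where the nearest mice had 8249, 22695, 7009 and 15291 CPM, and the mitochondrial share of its reads on genes was 7.66%, beside 8.56% in the nearest. CAST/EiJ on CD-TN had a mouse, number 5, with high values of mt-Nd2 (10273 CPM), mt-Nd4 (11420 CPM) and mt-Cytb (25858 CPM). The other values were mt-Nd1 at 8968 CPM in A/J CD-TN mouse 5, mt-Co3 at 15.4 CPM in A/J CD-TN mouse 3, mt-Co1 at 20721 CPM in DBA/2J WD-TN mouse 3 and mt-Nd5 at 7497 CPM in CAST/EiJ WD-TN mouse 3, all low, and mt-Atp6 at 24.4 CPM in 129S1/SvImJ WD-TN mouse 4, high.

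The diet effect of a strain differed from the mean of the other 6 in 10 cases, each an adjusted p below 0.05 in limma-voom. On the log2 scale mt-Rnr1 differed by -0.47 in C57BL/6J, -0.50 in DBA/2J and 0.54 in CAST/EiJ, and mt-Rnr2 by -0.52 in DBA/2J and 0.41 in PWK/PhJ. mt-Nd1 differed by -0.30, mt-Nd2 by 0.54 and mt-Co3 by -0.68 in PWK/PhJ, mt-Cytb by -0.34 in CAST/EiJ and mt-Co2 by 0.61 in A/J. In the test over all 7 strains the F statistics of the 9 genes called were 8.36 for mt-Rnr1, 5.42 for mt-Nd2, 4.88 for mt-Co3, 4.08 for mt-Rnr2, 3.72 for mt-Tp, 3.16 for mt-Nd1, 3.07 for mt-Cytb, 3.01 for mt-Atp6 and 2.96 for mt-Co2.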

How the results depend on the processing

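The counts of mitochondrial genes called stayed within 1.5 times under the alternatives other than those that follow, and the cause of each change was not tested. On WD-TN, 129S1/SvImJ had 2 in place of 4 when genes with any count were tested, a set of 41553 genes, and C57BL/6J had 2 in place of 4 in a separate fit. CAST/EiJ had 1 in place of 0 with DESeq2, with any count and with at least 10 counts in every mouse, and 2 in a separate fit. Against the other 6 strains, A/J had 0 in place of 1 with edgeR, any count, RIN and cohort, and 2 with DESeq2, RLE, scaling by nuclear genes, at least 10 counts in every mouse and sample weights. C57BL/6J had 2 in place of 1 with DESeq2 and cohort. With any count 19 mitochondrial genes were tested, and of the calls among the 16, 3 of 5 remained in A/J and 7 of 11 in DBA/2J against C57BL/6J. In the test over all strains 6 of 9 calls remained with any count, and 6 of 9 with cohort within strain as a term. Summing with the copies turned mt-Nd3 against C57BL/6J to 2.64 for 129S1/SvImJ, 1.77 for A/J, 2.28 for DBA/2J and 2.90 for WSB/EiJ, mt-Nd2 to 0.25 in CAST/EiJ and mt-Co1 to 0.33 in CAST/EiJ and 0.49 in PWK/PhJ. Scalings moved the median of all genes by at most 0.0376. With 1 mouse left out, the WD-TN counts were 2 to 4 in 129S1/SvImJ (2 without WD-TN mouse 2), 1 to 3 in A/J (1 without CD-TN mouse 3 or 4), 3 to 6 in C57BL/6J, 0 in CAST/EiJ, 3 to 4 in DBA/2J, 3 to 5 in PWK/PhJ and 1 in WSB/EiJ. Against the other strains they were 0 in 129S1/SvImJ and WSB/EiJ, 0 to 2 in A/J, 1 to 2 in C57BL/6J, 2 in CAST/EiJ, 2 to 3 in DBA/2J and 3 to 5 in PWK/PhJ. Against C57BL/6J they were 6 to 7 in 129S1/SvImJ, 3 to 5 in A/J (3 without A/J mouse 3 or C57BL/6J mouse 3, 7 or 8), 13 to 14 in CAST/EiJ, 7 to 11 in DBA/2J (7 without DBA/2J mouse 2), 12 to 13 in PWK/PhJ and 9 to 11 in WSB/EiJ, and in the test over all strains 7 to 9. Strain and cohort could not be separated for WSB/EiJ against C57BL/6J, so that fit was not run. No paired analysis was possible because the mice carry no replicate numbers in the labels. Genes of under 10 CPM and reads that match several places limit what these counts can show.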
